A study of Oncorhynchus gorbuscha with 76 samples.

Results

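Ubiquitin and proteasome genes were followed through the spawning migration of pink salmon (Oncorhynchus gorbuscha). They were taken from the count tables by symbol, as the rows whose names began with the prefixes of the ubiquitin enzymes, of several ubiquitin ligase and deubiquitinase families, or of the proteasome. This gave 140 genes of the 40756 rows, all 140 of them among the 8117 rows with a symbol other than a LOC number. They fell into 13 subgroups by prefix: 37 rnf, 20 usp, 20 psm, 14 ube2, 13 trim, 12 fbxo, 8 fbxl, 5 fbxw, 4 otud, 3 ube3, 2 uba, 1 cul and 1 uchl gene. The prefix also took in psme3ip1, whose product binds a proteasome activator and is not a proteasome subunit. A LOC number names 32639 rows, so duplicate copies of these genes, common in salmonids, may be counted in rows that were not included here, and reads that a copy shares with a named row cannot be told apart. Family genes with no row under a symbol, among them the ligases fbxo32 and trim63, are not covered. Only 4 psma and 3 psmb genes had such a row, so the psm rows stand for part of the proteasome.

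RNA came from muscle, head kidney and gonads (ovary or testis) of females and males labelled as ocean, river or spawning, 3 stages that follow each other in the migration. The 76 libraries fell into 18 groups of tissue, sex and stage. Female muscle and female head kidney had 4 libraries at each stage, and male head kidney likewise. Male muscle had 4 ocean, 5 river and 3 spawning libraries. Ovary had 4 ocean, 4 river and 5 spawning libraries, and testis had 5 at each stage. The labels give no strain, age or other treatment. Libraries of the same stage, sex and number were taken as 1 fish, which makes 28 fish, each sampled at a single stage.

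Ubiquitin is a small protein that is joined to other proteins in a chain of reactions. A ubiquitin-activating enzyme (E1, uba genes) passes it to a conjugating enzyme (E2, ube2 genes), and a ligase (E3, such as ube3, trim and rnf genes, and F-box proteins held by a cullin) selects the target. Deubiquitinases (usp, otud and uchl genes) take ubiquitin off again, and the proteasome, a barrel of psma and psmb subunits capped by a particle of psmc and psmd subunits, unfolds and cuts the tagged protein. In vertebrate muscle this pathway is known for breaking down myofibrillar protein during fasting and disuse.

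Deposited totals were 15784611 to 29286325 estimated counts per muscle library, 13651505 to 18724203 per head kidney library and 12719694 to 17696550 per gonad library. Levels are given as CPM, the counts relative to library size with TMM scaling within each tissue and sex, so they compare libraries for 1 gene and do not rank genes. Changes are log2 differences with an approximate standard error (SE), the size of the change divided by the square root of the test's F statistic. Where a group holds very few counts this SE is rough. A gene was called at an adjusted p under 0.05 in edgeR's quasi-likelihood test, adjusted over all genes tested in that comparison. Of the 140 members, 131 had enough counts to be tested in at least 1 tissue and sex, and 115 in all 6. The 9 tested nowhere were psmb5 and psmb11a, with 4 and 3 counts over all libraries, rnf150b, rnf151, rnf157, rnf180a, rnf182, rnf224 and usp21. The fish within a group are separate fish by their numbers.

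In muscle more members rose than fell at spawning. In females 53 of 118 tested members rose and 15 fell relative to ocean, where 25.8% of all 21695 genes tested rose and 24.7% fell. In males 39 of 119 rose and 15 fell, where 20.2% of all 22042 genes rose and 20% fell. The median member change was 0.63 in females and 0.34 in males, while the median of all genes was -0.01 and 0.03. With libraries scaled by their totals alone, the median of all genes moved to 0.76 in females and 1.18 in males, and 75 members rose and 4 fell in each sex. With that scaling 9461 of 21695 genes rose and 2635 fell in females, and 10894 of 22042 rose and 1499 fell in males. Of 118 members tested in both sexes, 36 rose in both, which is 67.9% of the female and 92.3% of the male risers, and 11 fell in both, which is 73.3% of the fallers of each sex. Over all genes tested in both sexes, the genes that rose in both were 63.5% of the female and 81.6% of the male risers, and those that fell in both were 59.9% of the female and 72.4% of the male fallers. No member went opposite ways in the 2 sexes.

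**Figure D1:**
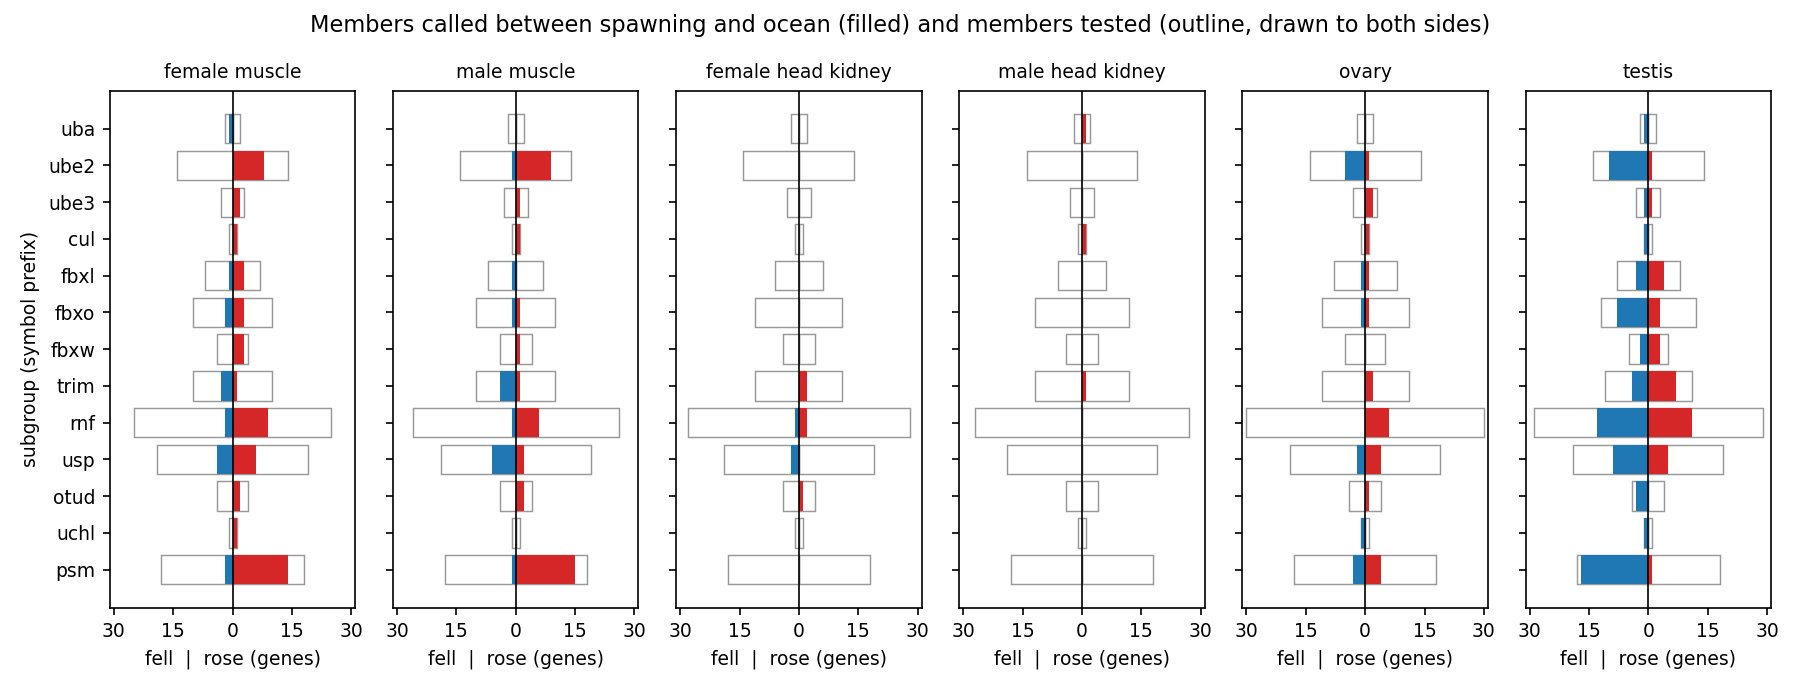
Members called between spawning and ocean in each tissue and sex, by symbol prefix. Filled bars count members that rose (red, right) or fell (blue, left), and outlines, drawn to both sides, count the members tested. The psm bar points right in both muscles, with 14 risers in females and 15 in males, and left in testis, with 17 fallers.

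The muscle libraries also differed in their fibre markers. The summed level of 10 skeletal muscle marker genes was 579 to 3502 CPM in spawning females, against 7791 to 12794 CPM in ocean females, and 886 to 1418 CPM in spawning males, against 8594 to 22935 CPM in ocean males. In river fish it was 6256 to 11166 CPM in females and 1416 to 9420 CPM in males. The lowest river male, at 1416 CPM, lay inside the range of the spawning males. Of the 9 markers tested in female muscle, 6 fell and 3 rose, so the sum does not stand for every marker. The marker mylpfb was at 0 in female muscle at both stages and in ocean males. Markers of other cell types shifted too. Renal tubule markers (10 genes) summed to 1.09 to 3.3 CPM in spawning females, against 22.3 to 125 CPM in ocean females. In males they summed to 1.24 to 4.54 CPM at spawning, against 78.2 to 162 CPM in ocean fish. Adipocyte markers (4 genes) summed to 5.49 to 16.2 CPM in spawning and 16.2 to 35.4 CPM in ocean females, and overlapped in males. In whole tissue, fewer cells of a type and less RNA per cell cannot be told apart, and the part of these shifts in the results below was not tested.

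Among the activating enzymes, uba7, the E1 of the ubiquitin-like modifier ISG15, fell in female muscle. It had 1.07, 1.9, 1.26 and 2.41 CPM in spawning females, against 4.62, 5.35, 2.88 and 3.35 CPM in ocean females, with no overlap, a log2 change of -1.29 ± 0.35 (adjusted p = 0.00792). The change was -0.58 and not called with libraries scaled by their totals alone. The other E1, uba6, was not called in either muscle.

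Of 14 conjugating enzyme genes (ube2) tested, 8 rose and none fell in female muscle, where 25.8% of all genes rose and 24.7% fell. In male muscle 9 rose and 1 fell, where 20.2% of all genes rose and 20% fell. ube2d2, a widely used E2 of many ligases, had 17.3, 32, 16.7 and 13.7 CPM in spawning females, against 5.16, 4.9, 4.68 and 5.39 CPM in ocean females, a change of 1.99 ± 0.28 (adjusted p = 8.16e-05). In males it had 14.6, 16.6 and 29.4 CPM at spawning, against 4.27, 3.66, 4.75 and 5.74 CPM in ocean fish, a change of 2.13 ± 0.58 (adjusted p = 0.0133). Every spawning library of either sex lay above every ocean library of that sex, although without spawning male 9 the male change was 1.78 with an adjusted p of 0.0570. ube2j1, an E2 anchored in the endoplasmic reticulum membrane, had 20.4, 22.2, 14.4 and 10.4 CPM in spawning females, against 3.76, 4.49, 2.96 and 3.66 CPM in ocean females, and rose by 2.18 ± 0.28 (adjusted p = 4.9e-05). In male muscle it rose by 1.83 ± 0.46. Other E2 genes that rose in both sexes were ube2j2, ube2ia and ube2ib (E2s of the modifier SUMO), ube2l3b, ube2s and ube2wb. The single faller, in males, was ube2c, an E2 of the anaphase-promoting complex, at -1.03. Its change turned to 0.17 with libraries scaled by their totals alone, and the call was lost in 5 of the 12 fits that each left out 1 library.

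The cullin scaffold cul1b had the largest rise of all members in both muscles. A cullin of this kind holds an F-box protein at one end and an E2 at the other. Its level was 1073, 804, 1440 and 926 CPM in spawning females, against 58.7, 101, 109 and 81 CPM in ocean females, a log2 change of 3.60 ± 0.36 (adjusted p = 9.21e-06). In males it was 616, 1053 and 1143 CPM at spawning, against 50.9, 48.8, 112 and 29.6 CPM in ocean fish, a change of 3.96 ± 0.85 (adjusted p = 0.00535). The groups stood far apart in both sexes. River females, at 133, 112, 60.6 and 152 CPM, lay far below the spawning fish. Most of them were above the highest ocean female, at 109 CPM, but the river minus ocean change of 0.39 was not called.

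The F-box genes, which select targets for such a complex, were mixed. In female muscle 9 of 21 tested fbxl, fbxo and fbxw members rose and 3 fell, and in male muscle 2 rose and 2 fell. Of all genes 25.8% rose and 24.7% fell in females, and 20.2% rose and 20% fell in males. The female risers were above that share, and the other counts were below it. fbxo34 rose in both sexes. It had 14.9, 50.5 and 47.8 CPM in spawning males, against 8.71, 8.51, 10.9 and 4.64 CPM in ocean males, a change of 2.20 ± 0.41 (adjusted p = 0.00309), and in females it changed by 1.87 ± 0.25. fbxl2 fell in both. In females it had 1.3, 1.2, 6.34 and 0.987 CPM at spawning, against 6.42, 9.55, 10.8 and 8.59 CPM in ocean fish, a change of -1.84 ± 0.54 (adjusted p = 0.0121), and the 6.34 CPM of spawning female 4 lay close below the lowest ocean value. In males it had 0.774, 0.647 and 0.578 CPM at spawning, against 8.14, 8.21, 10.3 and 0.662 CPM in ocean fish, a change of -3.35 ± 0.90 (adjusted p = 0.0128), where ocean male 9 was as low as the spawning fish. Without spawning male 9 its adjusted p was 0.0516, and with libraries scaled by their totals alone the female change was -0.99 and was not called. fbxo5, an inhibitor of the anaphase-promoting complex, had 0.279, 0.206, 0.294 and 0.219 CPM in spawning females, against 1.64, 0.204, 0.904 and 0.762 CPM in ocean females, with a called log2 change of -1.75 ± 0.55, and changed by -2.27 ± 0.85 in males. The female ranges overlapped, its call was lost without ocean female 2 (-1.27), and neither sex was called with libraries scaled by their totals alone (-0.93 in females and -1.01 in males).

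Ring-finger and trim ligases were called in both directions. In female muscle 9 of 25 rnf members rose and 2 fell, and 1 of 10 trim members rose and 3 fell. In male muscle 6 of 26 rnf members rose and 1 fell, and 1 of 10 trim members rose and 4 fell. Of all genes 25.8% rose and 24.7% fell in females and 20.2% rose and 20% fell in males, so the male rnf risers and the female trim fallers are near the shares of all genes. rnf115a had 33, 36.1, 34.8 and 22.5 CPM in spawning females, against 5.09, 4.49, 6.49 and 5.84 CPM in ocean females, a change of 2.53 ± 0.24 (adjusted p = 7.73e-06). rnf103, a ligase of the endoplasmic reticulum membrane, had 99.6, 46, 57.3 and 47.6 CPM in spawning females, against 11.3, 18.2, 13.6 and 11.7 CPM in ocean females, a change of 2.19 ± 0.28 (adjusted p = 4.53e-05). For both genes every spawning library lay above every ocean library, as the choice of the largest rises required. rnf181 rose in both sexes, by 2.47 ± 0.37 in females and 2.45 ± 0.69 in males.

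trim32 is a muscle ligase that is mutated in a human limb-girdle muscular dystrophy. It had 4, 3.71, 2.48 and 4.33 CPM in spawning females, against 6.65, 7.96, 6.57 and 6.71 CPM in ocean females, with a log2 change of -0.94 ± 0.23 (adjusted p = 0.00412). In males it had 2.21, 2.03 and 2.09 CPM at spawning, against 7.01, 11.4, 5.51 and 6.73 CPM in ocean fish, and changed by -1.86 ± 0.37 (adjusted p = 0.00399). The stages did not overlap in either sex, but with libraries scaled by their totals alone the changes were -0.22 in females and -0.69 in males and neither was called. trim105 fell as well, with 17.8, 8.91, 10.4 and 18.6 CPM in spawning females, against 33.6, 44.2, 80.5 and 39.9 CPM in ocean females, a change of -1.83 ± 0.41, and with 14.2, 7.3 and 8.09 CPM in spawning males, against 57.6, 50.5, 40.9 and 34.9 CPM in ocean males, a change of -2.22 ± 0.50. The male change of trim105 was -1.05 and not called with libraries scaled by their totals alone. trim35-13 had 16, 56.8 and 38.9 CPM in spawning males, against 266, 230, 183 and 330 CPM in ocean males, a change of -2.76 ± 0.61 (adjusted p = 0.00576). All 4 ocean males lay above all 3 spawning males. Among the rnf genes, rnf44 fell in females, at 0.419, 0.577, 0.672 and 0.439 CPM in spawning fish, against 2.11, 1.71, 4.76 and 2.79 CPM in ocean fish (-2.40 ± 0.38), and rnf115b fell in males, at 1.32, 1.43 and 1.2 CPM in spawning fish, against 6.61, 8.36, 6.13 and 7.62 CPM in ocean fish (-2.44 ± 0.45). These groups did not overlap, as the choice of the largest falls required. In female muscle rnf115b also fell, while its relative rnf115a rose. In male muscle rnf115a was not called. Of the HECT ligases, which carry ubiquitin themselves, ube3c rose in both muscles. It had 46.7, 39.6, 45.7 and 30.4 CPM in spawning females, against 12.4, 18, 18.2 and 13.4 CPM in ocean females, a change of 1.39 ± 0.22, and in males it changed by 1.57 ± 0.35.

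Of 19 usp deubiquitinases tested, 6 rose and 4 fell in female muscle, and 2 rose and 6 fell in male muscle. The female counts are near the 25.8% risers and 24.7% fallers among all genes, and in males 20.2% of all genes rose and 20% fell. usp54a had 0.419, 0.619, 0.588 and 0.987 CPM in spawning females, against 3.68, 5.59, 4.03 and 4.88 CPM in ocean females, a change of -2.80 ± 0.35 (adjusted p = 3.84e-05). In males it had 0.929, 0.416 and 0.356 CPM at spawning, against 5.56, 8.58, 1.93 and 2.87 CPM in ocean fish, a change of -3.04 ± 0.82 (adjusted p = 0.0129). Both sexes were low at spawning without overlap, but the male call was lost without spawning male 8 (adjusted p = 0.0536), without spawning male 9 (0.0557) and with libraries scaled by their totals alone (-1.82). usp53b had 1.08, 1.48 and 0.889 CPM in spawning males, against 18.3, 13.1, 7.23 and 22.3 CPM in ocean males, a change of -3.72 ± 0.58 (adjusted p = 0.00196). In females it changed by -1.62 ± 0.39 with overlapping ranges, and by -0.83, not called, with libraries scaled by their totals alone. Going the other way, usp3 and usp16, both known to remove ubiquitin from histone H2A, rose. usp3 had 10.5, 3.22, 5.12 and 7.07 CPM in spawning females, against 1.17, 1.59, 1.23 and 1.07 CPM in ocean females, a change of 2.34 ± 0.37 (adjusted p = 0.000188). usp16 had 75.5, 85.5 and 91.3 CPM in spawning males, against 13.9, 17, 22.5 and 9.71 CPM in ocean males, a change of 2.41 ± 0.53 (adjusted p = 0.00559). uchl3, which trims ubiquitin ends, had 36.1, 28.5, 20.7 and 33.2 CPM in spawning females, against 21.2, 20.1, 10.1 and 15.3 CPM in ocean females. The lowest spawning value lay below the highest ocean value, and its change of 0.83 ± 0.28 (adjusted p = 0.024) lost its call without ocean female 5 (0.65), without ocean female 7 (0.78) or without spawning female 2 (0.72). Of 4 otud members, 2 rose in each sex, otud3 and otud5a.

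**Figure D2:**
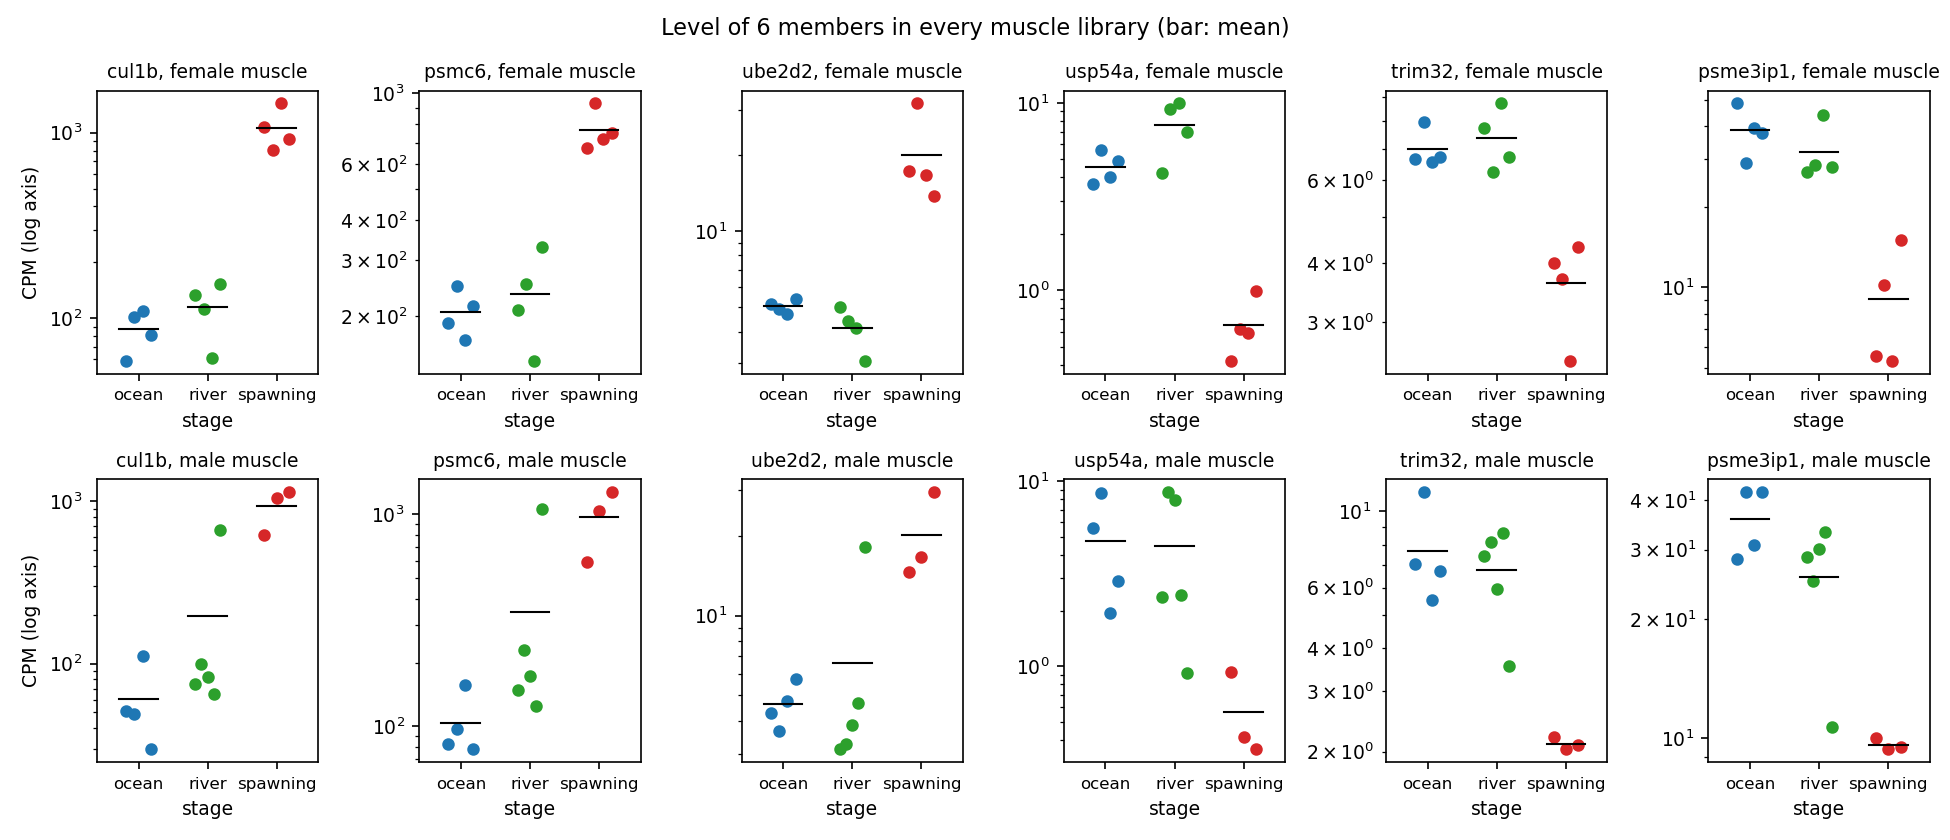
Level in CPM (log axis) of 6 members in every muscle library of females (top) and males (bottom) by stage, with bars at the means. cul1b, psmc6 and ube2d2 were high at spawning and usp54a, trim32 and psme3ip1 low, and river male 6, with 666 CPM of cul1b, lies near the spawning fish in each male panel.

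Proteasome genes moved together in muscle, and in opposite directions in muscle and testis. All 12 tested psma, psmb, psmc and psmd genes rose in both sexes, between 0.85 (psma4) and 2.00 (psmd10) in females and between 2.09 (psma4) and 3.23 (psmc6) in males. Of all genes 25.8% rose in female muscle and 20.2% in male muscle. The 14 psma to psmd rows, with the untested psmb5 and psmb11a, summed to 8679, 11532, 8620 and 10052 CPM in spawning females. In ocean females the sum was 3469, 4279, 3282 and 3766 CPM. In males the sum was 7939, 11837 and 13903 CPM at spawning, against 1787, 2281, 2610 and 1809 CPM in ocean fish. The sum averaged 9721 ± 1377 CPM in spawning and 3699 ± 435 CPM in ocean females (SD, n = 4 each). Every spawning library lay far above every ocean library of its sex.

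In the barrel, the alpha subunit gene psma3 had 337, 437, 277 and 391 CPM in spawning females, against 103, 139, 87.1 and 122 CPM in ocean females, a change of 1.68 ± 0.33 (adjusted p = 0.000927). In males it had 315, 436 and 556 CPM at spawning, against 41.9, 53.8, 78.3 and 48.1 CPM in ocean fish, a change of 2.97 ± 0.70 (adjusted p = 0.00762). The ranges were well apart in both sexes, and psma2b, psma4, psma5 and the beta subunit gene psmb7 also rose in both. In the cap, psmc6 encodes an ATPase that helps pull targets in. It had 674, 930, 719 and 749 CPM in spawning females, against 191, 249, 169 and 215 CPM in ocean females, and 595, 1035 and 1276 CPM in spawning males, against 82.5, 97.6, 156 and 77.9 CPM in ocean males. psmc2 and psmc3, its partners in the ATPase ring, rose by 1.47 and 1.24 in females and by 2.34 and 2.10 in males. The non-ATPase cap subunits psmd1 and psmd8 rose by 1.56 and 1.45 in females and by 2.48 and 2.35 in males. psmd10 and psmd5 encode chaperones that help build the cap. psmd10 had 146, 158, 105 and 121 CPM in spawning females, against 22.4, 42.6, 36 and 31.5 CPM in ocean females (2.00 ± 0.30), and 86.1, 114 and 162 CPM in spawning males, against 21.7, 14.3, 36.2 and 22.3 CPM in ocean males (2.35 ± 0.56).

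The genes around the proteasome were less uniform. psme3, an activator of the barrel, rose by 1.71 in females and 2.20 in males. The inhibitor gene psmf1 was not called in either sex, at 0.26 ± 0.24 (adjusted p = 0.379) and 0.32 ± 0.26 (adjusted p = 0.343). Of the barrel's assembly chaperones, psmg4 rose in both sexes (1.38 and 2.40) and psmg2 rose in males (0.97), with 0.77 (adjusted p = 0.0592) in females. psmg1 had 8.56, 14.6, 6.93 and 11.8 CPM in spawning females, against 16.5, 16.3, 14.5 and 17 CPM in ocean females, with a called change of -0.62 ± 0.24 (adjusted p = 0.0431) that turned to 0.13 with libraries scaled by their totals alone and lost its call in 8 of the 12 fits that each left out 1 library. psme3ip1 went against the subunits. It had 5.58, 10.2, 5.33 and 15 CPM in spawning females, against 48.4, 29.1, 39.1 and 37.4 CPM in ocean females (-2.09 ± 0.33, adjusted p = 0.000218), and 10, 9.38 and 9.51 CPM in spawning males, against 28.5, 42, 30.9 and 41.9 CPM in ocean males (-1.89 ± 0.36, adjusted p = 0.00333). The stages did not overlap, and the male change was -0.71 and not called with libraries scaled by their totals alone.

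**Figure D3:**
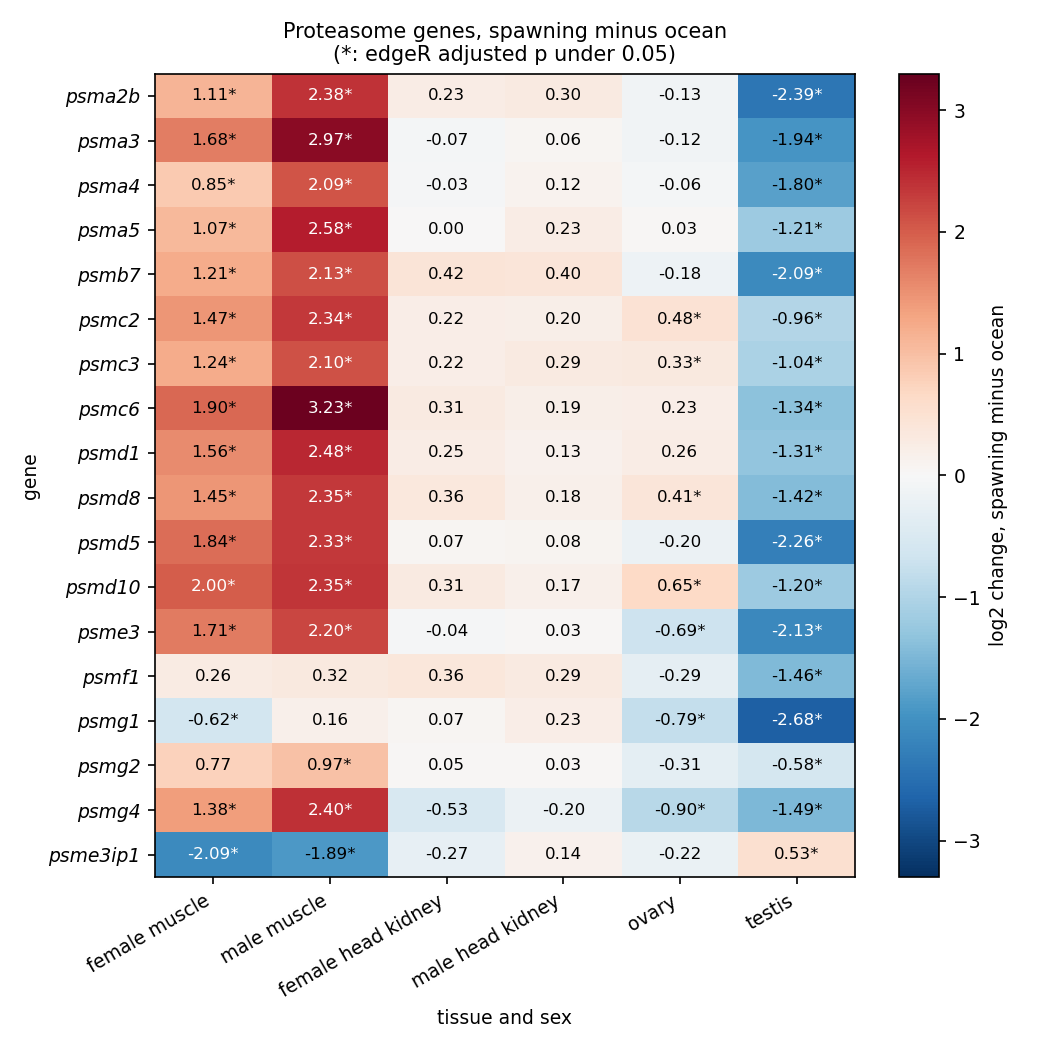
Log2 change of the 18 tested psm genes, spawning minus ocean, in the 6 tissues and sexes, with an asterisk where edgeR's adjusted p was under 0.05. Subunit genes were red in both muscles, pale in head kidney and blue in testis, where 17 of 18 fell; the female muscle value of psmg1 turned to 0.13 with libraries scaled by their totals alone.

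Most of this difference lay between river and spawning in females. No member was called between river and ocean in female muscle by edgeR, where 0.0415% of all genes were called; 8 members had an unadjusted p under 0.05 and DESeq2 called 0. Between spawning and river 49 of 118 members rose and 14 fell, against 24.9% and 23.5% of all genes. The 3 largest risers that did not overlap were cul1b (3.21), rnf181 (2.75) and usp3 (2.30), and the 3 largest fallers usp54a (-3.53), rnf44 (-2.50) and usp48 (-1.92). Both comparisons use the same river fish, so their values are not independent.

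In male muscle a single river library weighed on the steps with river, and whether its label is right was not tested. River male 6 had a summed psma to psmd level of 12044 CPM, against 2311 to 3763 CPM in the other 4 river males, and lay at the spawning level for psma3 (483 CPM), psmc6 (1062 CPM), psmd10 (140 CPM), usp16 (108 CPM), ube2d2 (18.1 CPM) and cul1b (666 CPM). With it, no member was called between river and ocean by edgeR (0.145% of all genes were called; 25 members had an unadjusted p under 0.05 and DESeq2 called 3), and between spawning and river 10 of 119 members rose and 11 fell, against 8.36% and 14.9% of all genes. With libraries scaled by their totals alone, 56 members rose and none fell between river and ocean, where the median of all genes moved to 0.94. With that scaling 6260 of 22042 genes rose and 64 fell. Without river male 6, 0 were called between river and ocean, but 46 rose and 22 fell between spawning and river. Between spawning and ocean 46 rose and 19 fell without it. The shares of all genes called without river male 6 are not given here, so these counts are not set against them. Without spawning male 8 the spawning minus river counts were 2 and 4, and without spawning male 9 they were 2 and 5. These counts too are given without the shares of all genes. With all libraries the named risers of that step were fbxo34 (2.04), ube2j1 (1.66) and ube2ib (1.15), and the fallers usp53b (-2.82), usp48 (-2.30) and trim32 (-1.67).

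**Figure D4:**
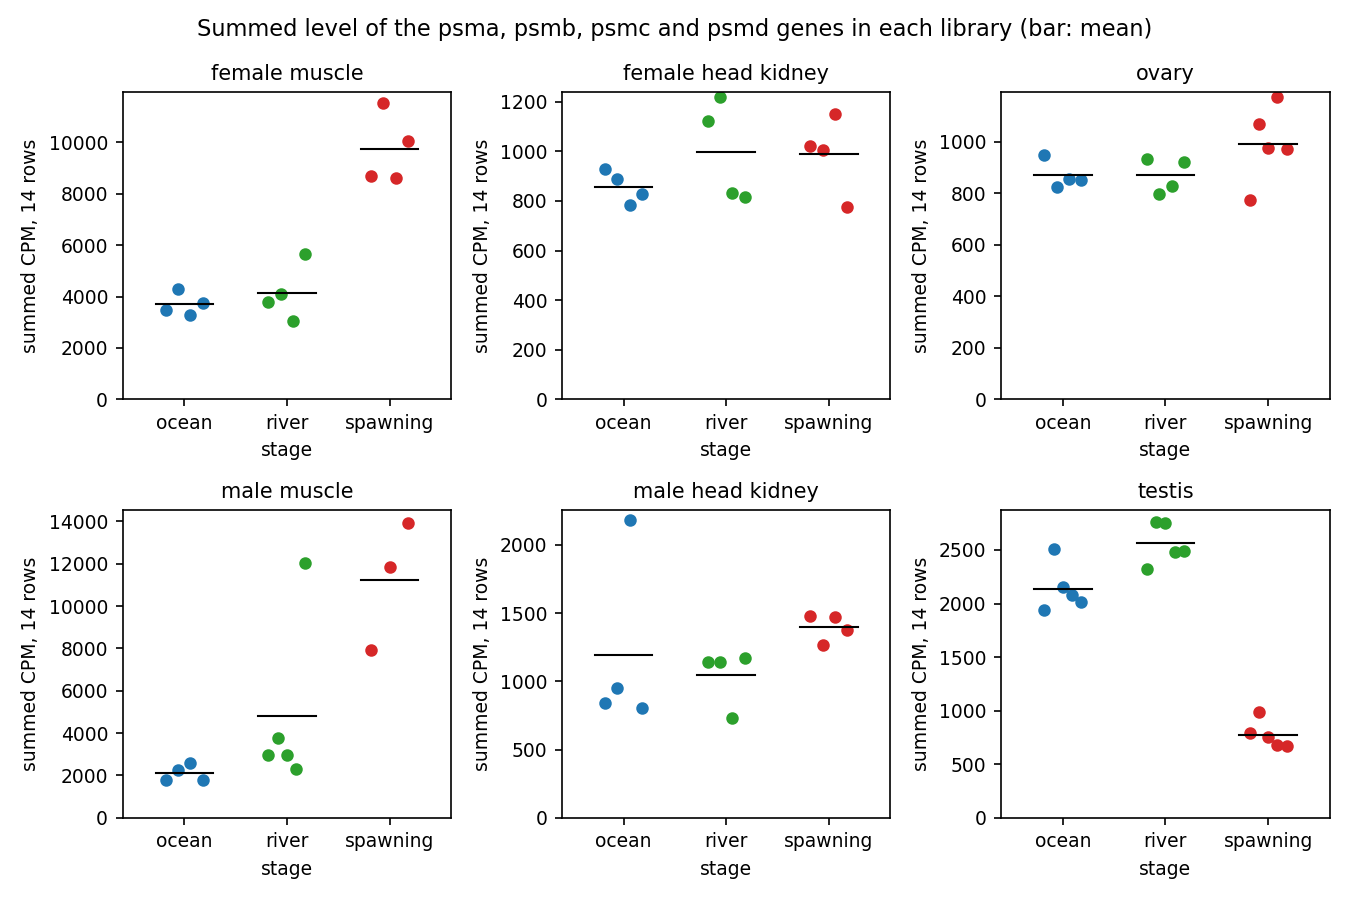
Summed CPM of the 14 psma to psmd rows in each library by stage, with bars at the means, in 6 panels of tissue and sex. Spawning muscle libraries (8620 to 11532 CPM in females) lie above ocean ones (3282 to 4279 CPM in females), testis runs the other way, and river male 6 stands apart at 12044 CPM.

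Other genes of the pathway, from lists of related genes outside the prefixes, were counted in the same fits. In these fits 25.8% of all genes rose and 24.7% fell in female muscle, and 20.2% rose and 20% fell in male muscle. Of 6 shuttle and unfoldase genes, which bring tagged proteins to the proteasome, 5 rose and none fell in female muscle and 4 rose and none fell in male muscle, with median changes of 1.41 and 1.50, against -0.01 and 0.03 over all genes. nploc4, a cofactor of the unfoldase p97, had 781, 725, 792 and 353 CPM in spawning females, against 53.6, 135, 89.4 and 124 CPM in ocean females (2.72 ± 0.43), and 292, 523 and 580 CPM in spawning males, against 58.3, 39.3, 123 and 17.4 CPM in ocean males (2.97 ± 0.66). The groups did not overlap in either sex. Of 4 genes for ubiquitin and ubiquitin-like proteins, 2 rose in each sex, urm1 and the polyubiquitin gene ubb. ubb had 347, 2068, 2322 and 1465 CPM in spawning females, against 395, 359, 479 and 246 CPM in ocean females (2.07 ± 0.56), and spawning female 2, at 347 CPM, lay within the ocean range. Of 12 partners of cullin ligases, 5 rose and 2 fell in each sex. keap1a, the adaptor that targets the stress factor Nrf2, rose by 2.92 ± 0.50 and 2.87 ± 0.44, while asb5a, a muscle adaptor, changed by -4.30 ± 0.67 in females. In males asb5a had 0.0387, 0 and 0 CPM at spawning, against 12, 9.63, 6.2 and 14.2 CPM in ocean fish, close to absent in all 3 spawning libraries. Of 19 other ligases 7 rose and 3 fell in females and 2 rose and 4 fell in males. The male fallers are near the share of all genes, and the male risers and female fallers are below it. prkn, the ligase Parkin that marks damaged mitochondria, had 4, 4.58, 2.18 and 15.9 CPM in spawning females, against 49.4, 44.7, 34.7 and 29.6 CPM in ocean females (-2.58 ± 0.48), and changed by -3.38 ± 0.69 in males. sqstm1, a receptor that takes ubiquitinated cargo to autophagy, rose by 2.17 ± 0.32 and 2.16 ± 0.54. Of 3 other deubiquitinases, all 3 rose in females and 2 in males, and of 5 regulator genes 2 rose in females and 1 in males.

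Head kidney, the blood-forming and interrenal organ of bony fish, showed few changes. In females 5 of 122 tested members rose and 3 fell between spawning and ocean, where 4.77% of all 27374 genes rose and 3.15% fell. In males 3 of 123 rose and none fell, where 4.17% of all 26897 genes rose and 2.6% fell. These shares are near those of all genes, and with libraries scaled by their totals alone 1 rose and 6 fell in females. With that scaling 755 of 27374 genes rose and 1418 fell in females. Without ocean female 2 or 7 a single member was called in females, 2 without ocean female 5 or spawning female 1, 3 without ocean female 4, and 5 without river female 1 or 9 or spawning female 2 or 4. The shares of all genes called in those fits are not given here, so these counts are not set against them. No psm gene was called in either sex by edgeR or DESeq2, and 0 of 18 had an unadjusted p under 0.05 in each sex.

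The head kidney libraries varied in what tissue they held. The summed level of 10 renal tubule marker genes was 7.48 to 2318 CPM in spawning females, against 1247 to 2115 CPM in ocean females, and 5.09 to 187 CPM in spawning males, against 7.75 to 1748 CPM in ocean males. Summed lymphocyte markers (7 genes) were 22.0 to 35.4 CPM in spawning females, against 67.4 to 111 CPM in ocean females, and 22.3 to 45.6 CPM in spawning males, against 83.2 to 123 CPM in ocean males. Interrenal markers (4 genes) ran from 1.32 to 8665 CPM in spawning females, against 0.338 to 1.27 CPM in ocean females, and from 1.61 to 1938 CPM in spawning males, against 0.287 to 4907 CPM in ocean males. Their part in the results was not tested gene by gene. With the tubule score as a covariate, added after the data were seen, 6 members rose and 8 fell in females and 4 rose and none fell in males. In those fits 1416 of 27374 genes rose and 1758 fell in females, and 1400 of 26897 rose and 979 fell in males.

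cul1b was called in male head kidney. It had 91, 94.9, 83.8 and 96.7 CPM in spawning males, against 57.7, 50.2, 45.8 and 57.2 CPM in ocean males, a change of 0.80 ± 0.12 (adjusted p = 0.00354). In females it had 113, 73.1, 89.5 and 164 CPM at spawning, against 49.5, 63, 65.4 and 53.6 CPM in ocean fish, a change of 0.93 ± 0.26 that just missed the threshold (adjusted p = 0.051) and was called without river female 9 or without spawning female 2. Neither sex overlapped between spawning and ocean. trim8b was called in both sexes. It had 51.8, 53.8, 43.8 and 46.1 CPM in spawning males, against 32.7, 27.9, 31.7 and 27.9 CPM in ocean males (0.70 ± 0.12, adjusted p = 0.00671). In females it had 54, 47.8, 49.1 and 77.6 CPM at spawning, against 29.7, 30.7, 41.4 and 38.8 CPM in ocean fish (0.70 ± 0.19, adjusted p = 0.0493), but this call was lost in 10 of the 12 fits that each left out 1 library. uba7 had 43, 47, 61.2 and 53.2 CPM in spawning males, against 28.1, 28.6, 23.4 and 43.1 CPM in ocean males (0.73 ± 0.19, adjusted p = 0.0403), with 1 ocean library, at 43.1 CPM, just inside the spawning range, and its call was lost in 9 of 12 such fits. With libraries scaled by their totals alone, trim8b in females (0.49) and uba7 in males (0.57) were not called.

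In female head kidney rnf185, a ligase of the endoplasmic reticulum, held its call in each of the 12 fits. It had 63.5, 46.4, 44.3 and 67.3 CPM in spawning females, against 28.3, 22.9, 27.3 and 26.6 CPM in ocean females, a change of 1.07 ± 0.18 (adjusted p = 0.00596). trim45 had 17.2, 28.4, 13.7 and 17.6 CPM in spawning females, against 8.24, 10.3, 7.79 and 9.67 CPM in ocean females (1.09 ± 0.25, adjusted p = 0.0219), and lost its call without ocean female 2, 5 or 7. The stages did not overlap for either gene, as the choice of the largest rises required. The remaining calls in females were rises of rnf181 (0.52) and otud5a (1.36) and falls of usp36 (-0.80), usp3 (-0.67) and rnf144b (-2.39). otud5a had 136, 102, 33.5 and 43.4 CPM in spawning females, against 28.5, 27.3, 33.8 and 33.4 CPM in ocean females, with a spawning library inside the ocean range. usp3 had 5.76, 6.22, 5.57 and 5.15 CPM in spawning females, against 8.86, 8.94, 8.95 and 9.47 CPM in ocean females, and rnf144b had 0.402, 0.817, 0.194 and 0.0804 CPM in spawning females, against 2.16, 1.08, 2.19 and 2.64 CPM in ocean females. The stages did not overlap for usp3 and rnf144b. The calls of otud5a, usp3 and rnf144b were lost in 10, 9 and 6 of the 12 fits that each left out 1 library. trim45 (0.91), rnf181 (0.33) and otud5a (1.18) were not called with libraries scaled by their totals alone.

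A single ocean male weighed on the proteasome result of male head kidney. The summed psma to psmd level was 1476, 1263, 1472 and 1377 CPM in spawning males, against 844, 950, 2179 and 803 CPM in ocean males, and the highest value was that of ocean male 8. Without that library 21 members rose and 1 fell, among them 8 psm genes: psma2b (0.86), psma5 (0.67), psmb7 (1.00), psmc2 (0.67), psmc3 (0.77), psmc6 (0.68), psmd8 (0.64) and psmg1 (0.61). The shares of all genes called without it are not given here, so these counts are not set against them. In females the sum was 775 to 1151 CPM at spawning, against 782 to 930 CPM in ocean fish, ranges that overlapped, and without spawning female 5 a single psm gene was called. The share of all genes called in that fit is not given here. Between river and ocean no member was called in either sex by edgeR, with 0.117% of all genes called in females and 0% in males; 16 and 6 members had an unadjusted p under 0.05, and DESeq2 called 4 and 1. Between spawning and river 3 members rose and none fell in females (3.9% and 4.56% of all genes), and 4 rose and 1 fell in males (4.3% and 4.92%). With libraries scaled by their totals alone these were 3 and 1 in females, where 914 of 27374 genes rose and 1257 fell. In males they were 3 and 2, where 1109 of 26897 genes rose and 1611 fell.

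Of the listed pathway genes outside the prefixes, znrf1 was the only gene called between spawning and ocean in head kidney, in either sex. znrf1, a membrane-bound ligase, had 55.9, 36.6, 58.3 and 41.6 CPM in spawning females, against 7.1, 4.88, 5.6 and 5.48 CPM in ocean females (3.06 ± 0.25, adjusted p = 0.000178), and 98.6, 96.3, 77.3 and 79.7 CPM in spawning males, against 5.97, 6.82, 14.8 and 8.75 CPM in ocean males (3.28 ± 0.29, adjusted p = 0.000187). Its spawning libraries lay far above all ocean and river libraries.

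The difference between muscle and head kidney was tested directly as the spawning minus ocean change in muscle minus that in head kidney. In females 36 of 127 members differed upward and 15 downward, against 12% and 14.9% of all genes. In males 22 of 129 differed upward and 12 downward, against 7.45% and 8.02%. Of these fish, 11 females and 9 males gave both tissues, and with fish as a block the counts were 21 and 10 in females and 0 and 0 in males. With that block 2345 of 29133 genes differed upward and 2758 downward in females. In males none of all 29415 genes was called, so the male fit with the block cannot tell members from other genes. In males the total was 22 without ocean male 1 muscle, 20 without ocean male 3 muscle, 18 without spawning male 8 muscle and 15 without spawning male 9 muscle. The shares of all genes in those fits are not given here, so these totals are not set against them. With libraries scaled by their totals alone, the median difference of all genes moved to 0.84 in females and 1.40 in males and the members split 70 and 4, and 68 and 1. All genes split 8863 and 1207 of 29133 in females, and 10436 and 581 of 29415 in males. Of the 18 psm genes, 10 differed upward and 1 downward in females and 11 upward and 1 downward in males. psmc6 differed by 1.46 ± 0.34 in females (adjusted p = 0.00354; 1.38 and 0.0245 with the block) and by 2.95 ± 0.78 in males (adjusted p = 0.015; 2.83 and 0.181 with the block). cul1b differed by 2.55 ± 0.43 in females (2.80 with the block). usp3, which rose in female muscle and fell in female head kidney, differed by 2.88 ± 0.41 (3.11 with the block). usp54a differed by -3.14 ± 0.53 in females (-3.25 with the block). The called differences with the smallest adjusted p in males were downward for usp53b (-4.36 ± 0.81), psme3ip1 (-2.13 ± 0.40), trim105 (-2.66 ± 0.53) and trim32 (-1.84 ± 0.42) and upward for rnf220a (1.79 ± 0.37). With the block usp53b was at -5.27 (adjusted p = 0.109), psme3ip1 at -1.98 (0.191) and trim32 at -1.51 (0.321). psme3ip1 (-0.73), trim105 (-1.24) and trim32 (-0.42) were not called in males with libraries scaled by their totals alone.

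The sexes were not shown to differ in their response. For the female minus male difference in the spawning minus ocean change, edgeR called no member of 119 in muscle (0.0506% of all genes were called; 16 members had an unadjusted p under 0.05 and DESeq2 called 1) and none of 127 in head kidney (0% of all genes; 3 with an unadjusted p under 0.05, and DESeq2 called 0). The psm genes had a median difference of -0.89 in muscle, and psmc6 was at -1.33 ± 0.74 (adjusted p = 0.489), an error too wide to show either a difference or its absence.

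In ovary the members moved both ways. Between spawning and ocean 23 of 127 rose and 13 fell, where 16.3% of all 28339 genes rose and 20% fell. Scaling libraries by their totals alone gave 34 risers and 6 fallers, where 6148 of 28339 genes rose and 4238 fell. Markers of gonadal somatic cells (5 genes) summed to 286 to 863 CPM in spawning ovaries, against 36.2 to 111 CPM in ocean ovaries, and red blood cell markers (6 genes) to 16.0 to 50.8 CPM at spawning, against 58.5 to 801 CPM in ocean ovaries. The 4 genes of the interrenal list summed to 1472 to 3007 CPM at spawning, against 46.0 to 142 CPM in ocean ovaries. In a gonad these 4 genes need not mark interrenal cells. Endothelial markers (6 genes) were at 549 to 644 CPM, against 931 to 1514 CPM. Germ cell markers (12 genes) were low at both stages, at 2.69 to 54.1 CPM in spawning ovaries, against 5.99 to 17.0 CPM in ocean ovaries, where gdf9, an oocyte factor, was at 0. The part of these shifts in the results was not tested.

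Among ovary ligases the largest rises were of rnf208, ube3b and rnf103. rnf208 had 44.5, 54.5, 40.6, 40.8 and 43.4 CPM in spawning ovaries, against 7.48, 8.32, 10.6 and 16.5 CPM in ocean ovaries (2.06 ± 0.23, adjusted p = 3.9e-05). The HECT ligase ube3b had 78.5, 61.6, 37.5, 55.8 and 51.9 CPM in spawning ovaries, against 16.1, 27.5, 20.7 and 25.1 CPM in ocean ovaries (1.35 ± 0.21, adjusted p = 0.000327). rnf103 had 58.8, 56.6, 54.1, 55.7 and 56.2 CPM in spawning ovaries, against 25.9, 25.2, 23.4 and 26.8 CPM in ocean ovaries (1.15 ± 0.08, adjusted p = 1.9e-06). None of the 3 overlapped between these stages, which the choice of the largest rises required, and the rnf103 values were the tightest. cul1b had 58.4, 63, 49.8, 59.3 and 60.7 CPM in spawning ovaries, against 34.7, 43.9, 38.3 and 38.2 CPM in ocean ovaries (0.59 ± 0.10). Among deubiquitinases, otud5a had 68.2, 58.1, 51, 67.8 and 75.1 CPM in spawning ovaries, against 30.7, 34.2, 25 and 31.6 CPM in ocean ovaries (1.08 ± 0.14). usp19, a membrane-anchored deubiquitinase linked to muscle wasting in rodents, had 89.4, 105, 83.9, 87.5 and 91 CPM in spawning ovaries, against 40, 57.2, 48.9 and 45.3 CPM in ocean ovaries (0.93 ± 0.11). The spawning libraries lay above the ocean libraries for each of these, which the choice of the largest rises required for otud5a and usp19.

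Falls in ovary included E2 genes and proteasome assembly genes. Of 14 ube2 members 1 rose and 5 fell, where 16.3% of all genes rose and 20% fell. ube2t, an E2 of DNA crosslink repair, had 1.3, 2.27, 3.45, 2.25 and 1.94 CPM in spawning ovaries, against 8.59, 7.46, 6.87 and 7.67 CPM in ocean ovaries (-1.77 ± 0.27, adjusted p = 0.000283). usp53b had 0.455, 1.25, 0.935, 1.25 and 1.51 CPM in spawning ovaries, against 3.63, 3.13, 3.89 and 2.06 CPM in ocean ovaries (-1.54 ± 0.48, adjusted p = 0.0234), and its call was lost without ocean female 2, 4 or 5 or without spawning female 1. uchl3 had 29.7, 26.5, 34.4, 37 and 31.3 CPM in spawning ovaries, against 50.7, 37.7, 48.8 and 58.4 CPM in ocean ovaries (-0.62 ± 0.16, adjusted p = 0.0103), with no overlap; with libraries scaled by their totals alone it was at -0.45 and not called.

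Of the 18 psm genes tested in ovary, 4 rose and 3 fell. Among all genes 16.3% rose and 20% fell, so both counts are near the shares of all genes. psmd10 had 20.4, 22.9, 22.3, 24.1 and 22.8 CPM in spawning ovaries, against 15, 15.9, 13.8 and 12.7 CPM in ocean ovaries (0.65 ± 0.12, adjusted p = 0.000956), and psmc2 (0.48), psmc3 (0.33) and psmd8 (0.41) rose with it. psmc2, psmc3 and psmd8 encode cap subunits, and psmd10 the cap chaperone. psmg1 had 14, 15.9, 19.9, 18.6 and 14.2 CPM in spawning ovaries, against 34, 25.7, 27.3 and 27.6 CPM in ocean ovaries (-0.79 ± 0.14), and psmg4 had 4.03, 4.53, 5.1, 6.01 and 5.82 CPM in spawning ovaries, against 9.22, 7.32, 12.1 and 9.48 CPM in ocean ovaries (-0.90 ± 0.18). Both chaperones of barrel assembly lay below every ocean value at spawning. The activator psme3 also fell (-0.69), with overlapping ranges, and was not called with libraries scaled by their totals alone (-0.52). Leaving out 1 library at a time, the calls of psmc3, psmd8 and psme3 were lost in 7, 5 and 8 of 13 fits. None of the tested barrel subunit genes, 4 psma and 1 psmb, was called, and their changes ran between -0.18 (psmb7) and 0.03 (psma5). The count of psm calls was 4 without ocean female 5, without spawning female 2 or without spawning female 4. The shares of all genes called in those fits are not given here. Between river and ocean edgeR and DESeq2 called no member in ovary (0% of all genes by edgeR; 12 members had an unadjusted p under 0.05). Between spawning and river 27 rose and 14 fell, against 16.8% and 21% of all genes, and 39 rose and 10 fell with libraries scaled by their totals alone. With that scaling 6201 of 28339 genes rose and 4422 fell.

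In testis most members changed. Between spawning and ocean 36 of 127 rose and 73 fell, where 40.7% of all 28149 genes rose and 43.2% fell. The median member change was -0.87 and that of all genes -0.12. The tissue itself had a different make-up at spawning. Markers of germ cells (12 genes) summed to 0.95 to 3.17 CPM in spawning testes, against 5531 to 12393 CPM in ocean testes, with piwil1, sycp3 and gdf9 at 0 in every spawning testis. Flagellum markers (6 genes) summed to 4.23 to 57.8 CPM at spawning, against 1512 to 2299 CPM in ocean testes, and markers of gonadal somatic cells (5 genes) to 12765 to 31731 CPM at spawning, against 56.9 to 79.6 CPM in ocean testes. The 4 genes of the interrenal list, which need not mark interrenal cells in a gonad, summed to 3260 to 10802 CPM at spawning. In ocean testes they summed to 18.9 to 46.3 CPM. Endothelial markers (6 genes) were at 445 to 876 CPM, against 14.2 to 21.2 CPM. The part of this shift in the changes below was not tested.

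The largest falls in testis were among the following genes. rnf17, a Tudor-domain protein that mouse sperm precursors need, had 0, 0, 0, 0 and 0.122 CPM in spawning testes, against 183, 192, 189, 185 and 162 CPM in ocean testes. Pooled, this is 2 counts at spawning against 14162 in ocean testes, 6811-fold lower per total counts, with a 95% counting interval of 1885 to 56247. fbxo5 had 0.0649, 0.357, 0, 0.0707 and 0.365 CPM in spawning testes, against 118, 179, 220, 160 and 169 CPM in ocean testes (-9.85 ± 0.48, adjusted p = 5.17e-11). fbxl13, known as a part of the motile axoneme in algae, had 0.13, 0.179, 0, 0.0707 and 0.183 CPM in spawning testes, against 99.5, 101, 165, 116 and 117 CPM in ocean testes (-9.95 ± 0.39). All 3 were close to absent at spawning and abundant at the earlier stages, with fbxo5 at 115, 231, 187, 200 and 161 CPM in river testes. rnf32 had 0, 0.0596, 0, 0.212 and 0.0609 CPM in spawning testes, against 42.2, 51.2, 84.7, 47.2 and 61.3 CPM in ocean testes (-9.65 ± 0.45), and fbxw10 changed by -8.23 ± 0.52. The SE of fbxo5, fbxl13 and rnf32 rests on very few spawning counts and is rough. Of the E2 genes, 1 rose and 10 fell of 14, where 40.7% of all genes rose and 43.2% fell. ube2c had 4.8, 4.83, 4.99, 3.82 and 4.75 CPM in spawning testes, against 99, 122, 160, 140 and 133 CPM in ocean testes (-4.82 ± 0.20, adjusted p = 1.1e-11), and ube2t had 2.34, 1.43, 2.61, 2.62 and 1.16 CPM in spawning testes, against 60.2, 62.1, 59.6, 64.4 and 72 CPM in ocean testes (-4.97 ± 0.24). Both kept a measurable level in every spawning testis. The scaffold cul1b, high in spawning muscle, had 52.4, 55.5, 61.8, 69.9 and 56.6 CPM in spawning testes, against 152, 153, 217, 178 and 174 CPM in ocean testes (-1.56 ± 0.16, adjusted p = 1.65e-07).

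Proteasome genes fell as a block in testis. Of 18 psm genes tested, 17 fell and 1 rose, where 43.2% of all genes fell and 40.7% rose. The summed psma to psmd level was 792, 989, 751, 676 and 671 CPM in spawning testes, against 1937, 2511, 2152, 2083 and 2017 CPM in ocean testes. No spawning library was above 989 CPM and no ocean library below 1937 CPM. psma2b had 37.8, 36.9, 27.3, 21.8 and 23.2 CPM in spawning testes, against 138, 173, 152, 150 and 156 CPM in ocean testes (-2.39 ± 0.18, adjusted p = 4.7e-09). psmc6 had 37.4, 47.7, 27.3, 25.5 and 25.8 CPM in spawning testes, against 71.6, 106, 82.2, 79.7 and 75.8 CPM in ocean testes (-1.34 ± 0.19, adjusted p = 6.6e-06). psmg1 had 19.9, 27.1, 18.5, 12.6 and 13.6 CPM in spawning testes, against 98.7, 140, 132, 109 and 110 CPM in ocean testes (-2.68 ± 0.20), the largest fall among the psm genes. The 3 genes each had no overlap. The log2 changes of the ATPase genes ran from -1.34 (psmc6) to -0.96 (psmc2) and those of the alpha genes from -2.39 (psma2b) to -1.21 (psma5). The single riser was psme3ip1, with 17.1, 23.9, 14.4, 12.9 and 12 CPM in spawning testes, against 9.95, 13.2, 10.9, 9.59 and 11.9 CPM in ocean testes, overlapping ranges; its change of 0.53 ± 0.21 (adjusted p = 0.0273) lost its call in 5 of the 15 fits that each left out 1 library. uchl3 had 60, 73.3, 28.3, 31.5 and 37.5 CPM in spawning testes, against 151, 176, 163, 151 and 151 CPM in ocean testes (-1.78 ± 0.23).

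Of 11 trim members tested in testis 7 rose and 4 fell, and of 29 rnf members 11 rose and 13 fell, where 40.7% of all genes rose and 43.2% fell. The rnf shares are near those of all genes. ube3b had 507, 509, 618, 784 and 381 CPM in spawning testes, against 31.8, 38.2, 43.1, 44.6 and 41.6 CPM in ocean testes (3.81 ± 0.21, adjusted p = 2.2e-10). rnf208 had 7.92, 5.36, 6.88, 3.54 and 10.2 CPM in spawning testes, against 0.209, 0.193, 0.138, 0.529 and 0.484 CPM in ocean testes (4.39 ± 0.40), and both genes also rose in ovary. rnf213b, whose relative in humans is a giant ligase with an ATPase core, had 160, 101, 99.4, 202 and 118 CPM in spawning testes, against 10.9, 7.14, 9.51, 11.8 and 11 CPM in ocean testes (3.75 ± 0.41). The F-box gene fbxl7 had 43.7, 37.2, 50.1, 36.4 and 34.9 CPM in spawning testes, against 2.92, 2.44, 4.41, 2.05 and 3.66 CPM in ocean testes (3.70 ± 0.32), and trim32, low in spawning muscle, had 44.2, 40.9, 35.8, 27.2 and 26.4 CPM in spawning testes, against 8.21, 6.37, 5.58, 6.95 and 7.16 CPM in ocean testes (2.35 ± 0.22). The spawning libraries lay above every ocean library for each of these genes, which the choice of the largest rises required for all but trim32. ube2h was the single E2 riser (1.68 ± 0.17).

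**Figure D5:**
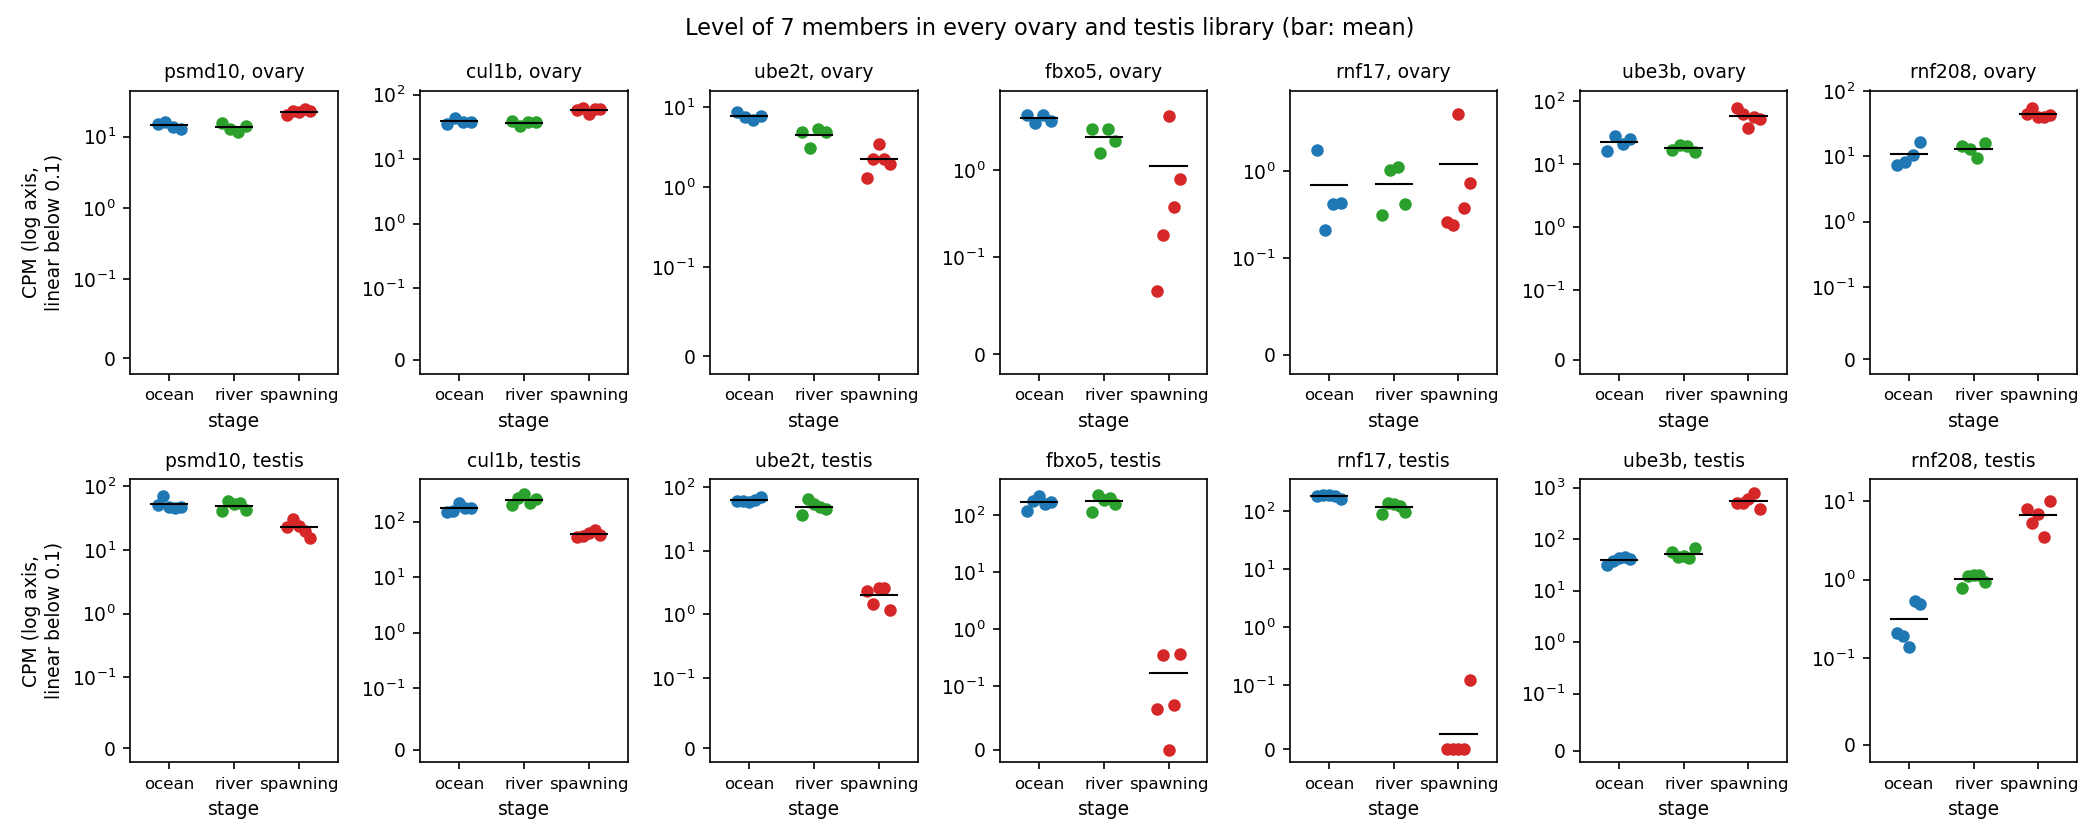
Level in CPM (log axis, linear below 0.1) of 7 members in every ovary (top) and testis (bottom) library by stage, with bars at the means. rnf17 and fbxo5 were near 0 in spawning testes, ube3b and rnf208 were high at spawning in both gonads, and psmd10 and cul1b were higher at spawning in ovary and lower in testis.

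Testis was the only one of the 6 tissues and sexes in which edgeR called members between river and ocean. There 30 of 127 rose and 24 fell, against 25.8% and 13.4% of all genes, and with libraries scaled by their totals alone 15 rose and 43 fell, so the direction of this step depends on the scaling. When scaled by totals alone, 5084 of 28149 genes rose and 6563 fell. Cell markers moved in this step as well. Flagellum markers (6 genes) summed to 3029 to 5291 CPM in river testes, against 1512 to 2299 CPM in ocean testes, adipocyte markers (4 genes) to 285 to 456 CPM, against 55.9 to 120 CPM, and endothelial markers (6 genes) to 34.2 to 104 CPM, against 14.2 to 21.2 CPM. Gonadal somatic cell markers summed to 98.0 to 335 CPM in river testes, against 56.9 to 79.6 CPM in ocean testes. Genes of the interrenal list, which need not mark interrenal cells here, summed to 42.8 to 213 CPM, against 18.9 to 46.3 CPM. Germ cell markers summed to 7888 to 16876 CPM, against 5531 to 12393 CPM. Their part in the changes was not tested. trim2a had 10.1, 5.4, 6.59, 6.39 and 8.71 CPM in river testes, against 1.88, 2.25, 1.86, 3.24 and 2.42 CPM in ocean testes (1.67 ± 0.22), and otud5a, a deubiquitinase, had 179, 144, 184, 176 and 226 CPM in river testes, against 41.1, 54.2, 73.6, 58.9 and 59.7 CPM in ocean testes (1.66 ± 0.17, adjusted p = 4.47e-05). ube3d had 5.8, 7.3, 4.74, 6.89 and 3.52 CPM in river testes, against 13.7, 13.6, 16.7, 14.6 and 14.3 CPM in ocean testes (-1.36 ± 0.31). None of the 3 overlapped, which their choice required, and otud5a was back at 55, 73.3, 69.2, 81.5 and 78.6 CPM in spawning testes. Among the psm genes psmc2 (0.59) and psmd1 (0.56) rose and psmg4 (-0.73) fell in this step, where psmc2 (0.33) and psmd1 (0.30) were not called with libraries scaled by their totals alone. The summed psma to psmd level was 2319, 2764, 2751, 2483 and 2492 CPM in river testes, so the low level was confined to spawning among the 3 stages. Between spawning and river 37 rose and 75 fell, against 38.8% and 41.8% of all genes.

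Calls in muscle and testis were set side by side. Of the 36 that rose in both muscles, 24 fell in testis (66.7% of the 36, and 37.5% of the 64 testis fallers tested in all 3 fits), and 5 rose. Of all 117 members tested in the 3 fits, 64 fell and 35 rose in testis, and of all genes 43.2% fell and 40.7% rose. Of the 11 that fell in both muscles, 4 rose in testis (36.4% of the 11, a share near that of all genes): fbxl2, psme3ip1, trim105 and trim32. Between the gonads, 9 members rose in both and 11 fell in both, 10 rose in ovary and fell in testis, and 1 did the reverse. These 10 made up 43.5% of the 23 ovary risers and 14.1% of the 71 testis fallers, and among them were the cap subunit genes psmc2, psmc3 and psmd8 and the cap chaperone gene psmd10. The first of these shares is not above that of all members, since 71 of the 125 members tested in both gonads fell in testis, as did 43.2% of all genes.

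Of the listed pathway genes outside the prefixes, 5 of 6 shuttle and unfoldase genes fell in testis and 1 rose (median -1.51, against -0.12 over all genes), and in ovary 1 rose and 1 fell (median -0.13). Of 7 regulators 4 rose and 2 fell in testis and 3 rose and none fell in ovary. Of all genes 40.7% rose and 43.2% fell in testis, and 16.3% rose and 20% fell in ovary. foxo1a, a factor that drives ubiquitin ligase genes in rodent muscle, had 19.9, 5.66, 5.4, 40.7 and 15.5 CPM in spawning testes, against 0.974, 0.257, 0.964, 1.19 and 0.431 CPM in ocean testes (4.51 ± 0.65), and 13.7, 6.32, 4.96, 3.88 and 4.67 CPM in spawning ovaries, against 1.26, 1.28, 0.717 and 1.12 CPM in ocean ovaries (2.61 ± 0.51). sqstm1 had 198, 251, 297, 237 and 211 CPM in spawning testes, against 4.52, 4.95, 3.44, 5.03 and 4.09 CPM in ocean testes (5.76 ± 0.41), and keap1a had 63.7, 69.5, 69.9, 76.9 and 60.2 CPM in spawning testes, against 1.04, 0.9, 1.03, 1.85 and 1.18 CPM in ocean testes (5.81 ± 0.45). These groups did not overlap, and both sqstm1 and keap1a were high at spawning in muscle too. Of 9 cullin ligase partners 5 rose and 4 fell in testis and none of 8 was called in ovary. Of 19 other ligases 5 rose and 9 fell in testis and 3 rose and 3 fell in ovary. For these ligases the testis fallers and both ovary counts are near the shares of all genes.

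Levels in the gonads also differed on average over the stages. Of 129 members tested, 26 were higher and 80 lower in ovary than in testis, where 40.8% of all 31687 genes were higher and 39.3% lower. Of 18 psm genes, 16 were lower in ovary and none higher. These are averages over the stages, and no difference was tested stage by stage. At spawning the psma to psmd sum, scaled within each gonad, was 992 ± 148 CPM in ovaries and 776 ± 130 CPM in testes (SD, n = 5 each), against 870 ± 54.7 CPM in ocean ovaries (n = 4) and 2140 ± 222 CPM in ocean testes (n = 5). The members with the smallest adjusted p were usp33 (-2.20 ± 0.10), cul1b (-1.77 ± 0.08), rnf208 (3.70 ± 0.18), rnf139 (-2.40 ± 0.12) and fbxl3a (-2.31 ± 0.12), where a negative value means lower in ovary.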

How the data were processed

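Total RNA was isolated with Trizol and libraries were enriched for poly(A), per the labels' protocols. The authors deposited 1 table of estimated counts per sex, and 36.4% of their values were not whole numbers. Tools named in the submitters' processing notes, with no roles, are Salmon 1.8.0, Trim Galore 0.6.4 and also R 4.3.3; the genome build and annotation are not given in the sources used here, so positions and sequences are not shown.

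From these estimated counts, rounded to whole numbers, each tissue and sex was fitted apart over its 3 stages with edgeR 4.0.16 (filterByExpr, TMM, quasi-likelihood test, Benjamini-Hochberg over all genes tested, threshold 0.05). Joint fits tested sex and tissue differences. The steps were tested on simulated data, where most of the smaller changes were missed and the share of false calls was above the threshold for the muscle against head kidney difference. Alternatives were other scalings, no filter, DESeq2 1.42.0, a block for the fish or replicate number, fits of 2 stages and leaving out each library. Libraries of muscle and head kidney share fish numbers within a stage: over 4395 genes their deviations correlated at -0.34 to 0.32 in 11 female and -0.24 to 0.36 in 9 male pairs. Across stages the numbers belong to different fish. No pair of libraries in a group agreed within counting noise (125 pairs, smallest chi-square per gene 12.7).

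The members, gene lists and tests were chosen with earlier results of these data known. Genes named are the 5 largest called changes each way without overlap and with an average log2 CPM of at least 1, the largest per subgroup, all psm and uchl genes, a list of well-known members, and 3 each way in steps with river; other names in counts of 5 or fewer were added after their values were seen. For genes named as the largest changes, lack of overlap was a condition of the choice and is no added evidence. Intervals cover counting error only.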

Additional observations from a re-analysis of the deposited data

Results flagged for a closer look

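In groups of 4 or 5 libraries, 22 of 233 sets of values held a library far from the others, where chance gives about 1 in 20 in independent sets. These sets share libraries, and their genes were picked from these data, so that rate is no benchmark for them. In male muscle river male 6 stood apart with 1062 CPM of psmc6, 483 CPM of psma3, 140 CPM of psmd10, 666 CPM of cul1b, 18.1 CPM of ube2d2, 108 CPM of usp16 and a sum of 12214 CPM over all psm rows. In male head kidney the psm sum was 2468 CPM in ocean male 8 and 875 CPM in river male 5, and trim8b was 35.8 CPM in river male 6. In female muscle river female 8 had 43.9 CPM of psme3ip1 and 6.34 CPM of uba7, ocean female 4 had 7.96 CPM of trim32 and spawning female 4 had 6.34 CPM of fbxl2. In female head kidney river female 8 had 46.8 CPM of trim8b and ocean female 7 had 9.47 CPM of usp3. In ovary spawning female 2 had 54.5 CPM of rnf208. In testis river male 3 had 144 CPM of psmg1, spawning male 10 had 0.122 CPM of rnf17, ocean male 6 had 165 CPM of fbxl13, and spawning male 9 had 0.212 CPM of rnf32 and 3.82 CPM of ube2c.

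The spawning minus ocean change differed between muscle and head kidney by a test of the difference itself, with no block for fish (edgeR, adjusted p under 0.05). In females the muscle minus head kidney difference was 2.88 for usp3, 2.55 for cul1b, 1.46 for psmc6 and -3.14 for usp54a. In males it was 2.95 for psmc6, -4.36 for usp53b, -2.13 for psme3ip1 and -1.84 for trim32. However, 11 females and 9 males gave both tissues. With fish as a block 21 members differed upward and 10 downward in females, where 2345 of 29133 genes differed upward and 2758 downward. In males none of the members and none of all 29415 genes was called, so that fit cannot tell members from other genes. The male differences were not called with the block and are not firm. On simulated data the share of false calls for the female difference was above the threshold.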

How the results depend on the processing

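Counts of members called are given as the total in both directions. RLE scaling kept each of the 29 counts within 1.5 times. With libraries scaled by their totals alone the counts for river minus ocean were 1 in female and 56 in male muscle, the male tissue difference was 69, and the female muscle change of psmg1 turned to 0.13. Without a filter on low counts 3 members were called in female head kidney, spawning minus ocean. DESeq2 called 3 in male muscle and 4 and 1 in female and male head kidney between river and ocean, 20 and 8 in female and male head kidney between spawning and ocean, 15 and 11 there between spawning and river, and 1 for the sex difference in muscle. Fits of the 2 compared stages called 13 in male muscle, 0 in female and 8 in male head kidney between spawning and river, and 4 psm genes in ovary. The tubule covariate gave 14 and 17 in female head kidney for spawning minus ocean and minus river. For spawning minus river 1984 of 27374 genes rose and 2101 fell with it.

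With the replicate number as a block, where the numbers across stages belong to different fish, spawning minus ocean gave 31 members and 10 psm genes in female muscle, 0 in both head kidneys, and 19 members and 2 psm genes in ovary. Spawning minus river gave 0 in both muscles and both head kidneys and 7 in ovary, and river minus ocean gave 3 in testis. With this block no gene at all was called for spawning minus river in female muscle or either head kidney, or for spawning minus ocean in male head kidney. Those fits cannot tell members from other genes. For spawning minus river 111 of 22042 genes rose and 135 fell in male muscle. For spawning minus ocean 2709 of 21695 rose and 2713 fell in female muscle, and 42 of 27374 rose and 17 fell in female head kidney. With fish as the block the tissue difference gave 31 in females and 0 in males, where 0 of all 29415 genes were called. Correlations of same-numbered libraries across stages ran from -0.59 to 0.62.

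Leaving out each library in turn gave 6 to 68 members in male muscle, spawning minus river, 1 to 7 in female and 2 to 22 in male head kidney, spawning minus ocean, 0 to 6 and 2 to 9 there for spawning minus river, 15 to 50 for the male tissue difference, and psm counts of 0 to 1 in female head kidney, 0 to 8 in male head kidney and 4 to 7 in ovary. The shares of all genes called in these fits are not given here, and the causes were not tested. Calls of few members in head kidney are the least firm, and with 3 to 5 fish a group a missed call does not show that a gene held its level.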

Other observations

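otud5a, a deubiquitinase, had 1619, 49, 34.6 and 4819 CPM in the river male head kidneys, where river males 2 and 6 held the high values. The other head kidney libraries of males had 29.8 to 45.8 CPM in ocean and 31.1 to 152 CPM in spawning fish, and river females had 38 to 46.6 CPM. In muscle of the same fish otud5a was 28.4 CPM in river male 2 and 116 CPM in river male 6, and in their testes 179 and 226 CPM. The gene was picked out after its values were seen, and no test was made of these 2 libraries.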
